A study of Mus musculus with 7 samples.

Results

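The TGF-beta ligand, receptors and SMADs are described here in retinal microglia (rMG) of mice labelled Irf8 KO, before and after laser injury. The set held 10 genes of the 40743 listed in the deposited table, found there by their symbols. It comprised the ligand gene Tgfb1, its presenter Nrros, the receptors Tgfbr1 and Tgfbr2, the signal carriers Smad2, Smad3 and Smad4, and the negative regulators Smad7, Ski and Skil. The RNA-seq series compared rMG from unlasered mice (3 libraries) with rMG from lasered mice (4 libraries), in a model in which laser spots on the retina provoke choroidal neovascularisation. Mice of both groups had the genotype Irf8-/- Cx3cr1GFP/+, so that all were, by genotype, without Irf8 in every cell and heterozygous for GFP in Cx3cr1. The lasered rMG were taken 7 days after the laser, from the central 70% of the retina, while the peripheral part was left out in lasered mice only, so that retinal region and laser cannot be told apart. Cells were sorted as CD45low CD11b+ Cx3cr1GFP/+ Ly6C- Ly6G-, with 10000 cells per library on average, pooled from 3 to 4 mice. Wild-type libraries were not analysed here.

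TGF-beta is secreted in a latent form, wrapped in its own propeptide, and has to be released before it can act. Nrros (also called Lrrc33) tethers latent TGF-beta1 to the surface of microglia and other myeloid cells. The freed ligand binds the type II receptor Tgfbr2, which then activates the type I receptor kinase Tgfbr1, and this kinase phosphorylates Smad2 and Smad3. These join Smad4 and enter the nucleus to regulate genes. Smad7 blocks the active receptor, and Ski and Skil (SnoN) repress the SMAD complex on DNA. In the brain, microglia depend on TGF-beta signalling for their homeostatic gene programme.

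Levels are given in CPM, the reads of a gene relative to all reads of its library. The depth was 20427558 to 36022954 reads for unlasered and 37133297 to 45919042 reads for lasered rMG, so the groups also differed in depth without overlap. A floor of 3 reads corresponded to 0.0653 to 0.147 CPM and covers counting error only, and all members were above it in every library. Irf8, listed only jointly with the overlapping gene Gm20388, was measured at 530, 489 and 507 CPM in unlasered libraries 1 to 3 and at 463, 465, 475 and 582 CPM in lasered libraries 1 to 4, and libraries are therefore named by their label. Of 10 tested microglia markers, 0 passed the limma test between groups, and the summed level of the list was 23431 to 27860 CPM in unlasered and 21404 to 28531 CPM in lasered libraries. P2ry12 of this list was lower in every lasered than in any unlasered library, and DESeq2 called it (adjusted p = 0.0312). The microglia marker Sall1 was at 1.36 CPM or less in every library and had no read in unlasered 2. Rod photoreceptor markers summed to 2218, 20059 and 5726 CPM in unlasered libraries 1 to 3 and to 321 to 1000 CPM in lasered libraries, and 14 of 15 were lower after laser. Cspg4 carried the increase in the pericyte and fibroblast list, which summed to 3.91 to 8.13 CPM in unlasered and 23.4 to 42.1 CPM in lasered libraries, and for which Col1a1 and Dcn stayed below the level tested. Col1a1 went the other way, with 0.147 to 0.861 CPM in unlasered and 0 to 0.0445 CPM in lasered libraries. So did Col1a2, with 0.0584 to 0.441 CPM and 0 to 0.0269 CPM. Col1a1 was under the floor in 4 libraries and Col1a2 in 5. Müller glia and astrocyte markers were 1 higher and 0 lower of 7 tested (sums of 52192 to 77224 CPM unlasered and 29459 to 72635 CPM lasered, nearly all from Apoe). No gene of the endothelial, retinal pigment epithelium, monocyte and neutrophil, T and B cell or dendritic cell lists passed the test, with the defining genes Cldn5, Cd3e and Trbc2 under the floor in every library. Sums of the monocyte and neutrophil list were 83.0, 25.3 and 82.4 CPM in unlasered 1 to 3. In lasered 1 to 4 they were 155, 209, 37.3 and 13.4 CPM. Dendritic cell markers summed to 48.3, 24.3 and 70.6 CPM in unlasered and 191, 200, 53.7 and 40.4 CPM in lasered libraries, in the same order. Lasered 1 and 2 were thus above all unlasered libraries for both lists, and lasered 3 and 4 were not. The part of these other cells in the results was not tested.

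Per kilobase of exons, which allows levels of different genes to be compared, Tgfbr1 was the highest of the 10 members in both groups. Its level was 223 ± 73.3 CPM per kb in unlasered (SD, n = 3) and 189 ± 39.8 CPM per kb in lasered rMG (SD, n = 4). Nrros (92.9 and 97.4 CPM per kb) and Tgfbr2 (84.6 and 84.9 CPM per kb) came next, followed by Ski (58.6 and 57.4 CPM per kb). The ligand Tgfb1 stood in the middle with 27.1 and 36.1 CPM per kb, beside Smad4 with 25.9 and 32.5 CPM per kb. Smad3 (17.7 and 18.3 CPM per kb) and Skil (17.2 and 17.5 CPM per kb) were lower, and Smad2 had 9.62 and 8.83 CPM per kb. The inhibitory Smad7 was the lowest with 3.62 and 3.68 CPM per kb. The order of the means was the same in unlasered and lasered rMG, and all 10 members kept their rank with the median in place of the mean, but only 5 of 10 with CPM not divided by length. Neighbours in this order did not differ beyond their spread in either group for Nrros and Tgfbr2, for Tgfb1 and Smad4, and for Smad3 and Skil. In unlasered rMG only, this also held for Tgfbr2 and Ski and for Smad4 and Smad3, whose ranges overlapped there. Their means differed by 26.0 and 8.21 CPM per kb, less than the larger SD of each pair (31.2 and 10.5 CPM per kb). The first of each of these pairs was still higher in 3 of 3 unlasered libraries. Among all listed genes by CPM, Tgfbr1 ranked 43 in unlasered and 65 in lasered rMG, whereas Smad7 ranked 8657 and 8420.

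**Figure D1:**
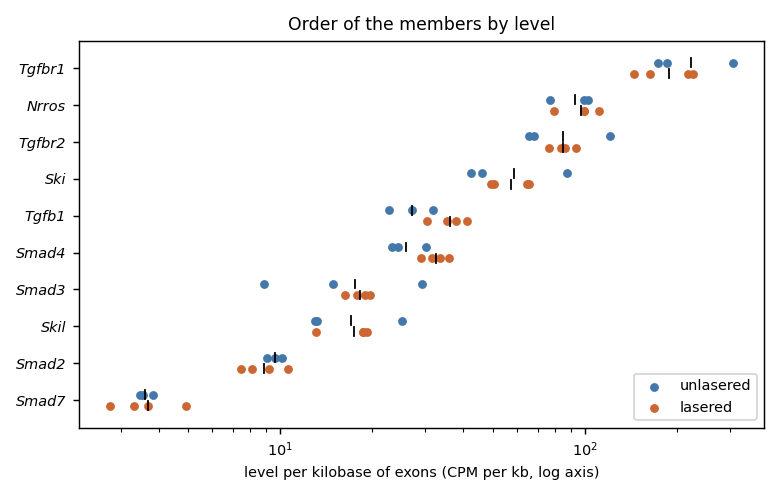
Level of each member in CPM per kilobase of exons (log axis), 1 point per library, with a bar at the mean of 3 unlasered (blue) and 4 lasered (orange) libraries. Tgfbr1 stands at the top (means of 223 and 189 CPM per kb) and Smad7 at the bottom (3.62 and 3.68 CPM per kb).

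The comparison of lasered with unlasered rMG asked whether the TGF-beta machinery changed its expression during the formation of the lesion. None of the 10 members passed the threshold of an adjusted p under 0.05 in either direction (limma on log2(CPM + 1), Benjamini-Hochberg over 17496 tested genes, where 1213 genes or 6.93% passed, 676 higher and 537 lower). At an unadjusted p under 0.05 were 2 members, Tgfb1 and Smad4, both higher after laser, where 22.7% of tested genes were. For 0 members were the unlasered and lasered libraries without overlap, against 21% of tested genes. The count of called members was also 0 with edgeR, which called 7.24% of tested genes, and with DESeq2, which called 13.2%. With each, 2 members had an unadjusted p under 0.05, beside 3931 of 17496 tested genes for edgeR and 4157 for DESeq2. Median log2 fold change was 0.06 for the members and -0.01 for all genes tested, and the median of its absolute size was 0.11 for the members and 0.24 for all genes. Replicates are separate pools of cells, and in bulk libraries fewer cells of a type and less RNA per cell cannot be told apart.

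**Figure D2:**
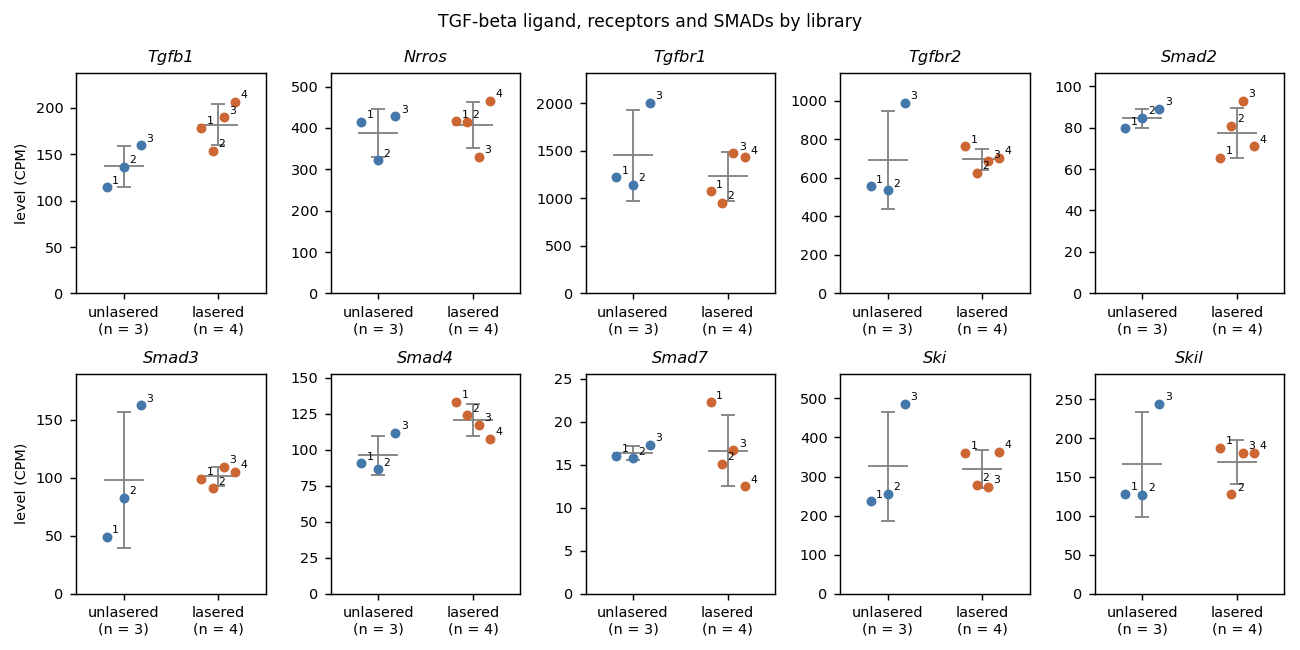
CPM of each member in each library (numbered points), with the mean and SD of 3 unlasered and 4 lasered libraries. The groups overlap for all 10 members, and unlasered 3 is the highest point for Tgfbr1, Tgfbr2, Smad3, Ski and Skil.

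Tgfb1 (ENSMUSG00000002603, chromosome 7 of GRCm38, 25687002 to 25705077, plus strand), which encodes the TGF-beta1 ligand, was measured at 114, 136 and 160 CPM in unlasered libraries 1 to 3 and at 178, 154, 190 and 206 CPM in lasered libraries 1 to 4. Only lasered 2 reached down into the unlasered range, just below unlasered 3. The means were 137 ± 22.6 CPM (SD, n = 3) and 182 ± 22.2 CPM (SD, n = 4). Its log2 fold change was the largest of the 10 members at 0.41 (SE 0.15), a 1.33-fold difference (95% interval 1.05 to 1.69) with a limma adjusted p of 0.145. The exact two-sided permutation p over libraries was 0.114, where 0.057 is the smallest that 3 against 4 libraries can give, so that this test cannot make a call at any member.

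Nrros (ENSMUSG00000052384, chromosome 16, 32142785 to 32165594, minus strand) holds the latent ligand at the cell surface. It was measured at 414, 321 and 428 CPM in unlasered and at 416, 416, 330 and 466 CPM in lasered libraries. Each group had 1 lower library, unlasered 2 and lasered 3, and the groups overlapped fully apart from lasered 4. The log2 fold change was 0.07 (SE 0.15, limma adjusted p = 0.833).

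Tgfbr1 (ENSMUSG00000007613, chromosome 4, 47353222 to 47414931, plus strand), the type I receptor kinase, had 1219, 1140 and 2005 CPM in unlasered and 1073, 951, 1475 and 1430 CPM in lasered libraries. Unlasered 3 was far above the other unlasered libraries, and the lasered libraries lay on both sides of these. The difference was -0.22 on the log2 scale (SE 0.23, limma adjusted p = 0.633), with a 95% interval of the fold from 0.603 to 1.23.

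Tgfbr2 (ENSMUSG00000032440, chromosome 9, 116084293 to 116175360, minus strand), the receptor that binds the ligand first, had 556, 536 and 988 CPM in unlasered and 764, 626, 686 and 703 CPM in lasered libraries. All lasered libraries fell between the 2 lower unlasered libraries and unlasered 3. The means were 693 ± 255 CPM (SD, n = 3) and 695 ± 56.5 CPM (SD, n = 4), and the log2 fold change was 0.06 (SE 0.21, limma adjusted p = 0.90). Within a library, the ratio of Tgfbr1 to Tgfbr2 in CPM was 2.19, 2.13 and 2.03 in unlasered and 1.40, 1.52, 2.15 and 2.03 in lasered libraries. Both receptors thus kept nearly the same ratio in the unlasered libraries while each level varied, and lasered 1 and 2 had the lowest ratios. The ratio did not differ between groups beyond its spread (exact permutation p = 0.286, Benjamini-Hochberg adjusted 0.429 over 6 ratios of members chosen after their values were seen).

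Tgfbr1 and Tgfbr2 were both highest in unlasered 3, as were Smad3, Ski and Skil. The shared variation of the receptors among unlasered libraries thus rests mainly on that library, and a part of promoter sequence in it was not tested. For the receptors, the 250 bases before their RefSeq starts are shown (GRCm38.p6, 5′ to 3′ on the strand of the gene). The SMAD-binding element CAGAC is in capitals. RefSeq promoter entries matched 6 of the 10 members, Tgfb1, Nrros, Tgfbr1, Tgfbr2, Smad3 and Ski.
Tgfbr1 at chr4:47352972-47353221, plus strand: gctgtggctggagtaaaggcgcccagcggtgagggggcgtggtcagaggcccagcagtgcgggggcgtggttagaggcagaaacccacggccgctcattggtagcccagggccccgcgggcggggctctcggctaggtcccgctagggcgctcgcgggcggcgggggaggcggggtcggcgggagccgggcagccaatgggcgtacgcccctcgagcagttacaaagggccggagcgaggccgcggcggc
Tgfbr2 at chr9:116175364-116175613, minus strand: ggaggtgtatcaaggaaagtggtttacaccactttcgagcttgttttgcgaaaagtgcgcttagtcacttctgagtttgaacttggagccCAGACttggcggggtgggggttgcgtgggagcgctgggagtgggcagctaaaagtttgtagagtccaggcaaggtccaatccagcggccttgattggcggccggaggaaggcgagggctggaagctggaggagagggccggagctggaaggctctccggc
CAGAC, searched on both strands, occurred 1 time in the Tgfbr2 window, beginning 160 bases before the start, and 0 times in the Tgfbr1 window shown. A second RefSeq start of Tgfbr1 had 1 match, 203 bases upstream, and Nrros had 1 match, 177 bases upstream, whereas Tgfb1, Smad3 and Ski had 0. This short motif was present in 42.2% of 32851 promoter windows of the same length. The palindrome GTCTAGAC (0.167% of windows), the PU.1 motif GAGGAAGT (2.44%) and the ETS-IRF composite GGAANNGAAA (2.30%) had 0 matches in the windows of these members.

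Smad4 (ENSMUSG00000024515, chromosome 18, 73639009 to 73703780, minus strand), the partner shared by all receptor-regulated SMADs, had 90.4, 86.3 and 112 CPM in unlasered and 133, 124, 117 and 108 CPM in lasered libraries. Unlasered 3 exceeded lasered 4 and was below the other lasered libraries. Its means were 96.1 ± 13.6 CPM (SD, n = 3) and 120 ± 10.8 CPM (SD, n = 4), a 1.26-fold difference (95% interval 1.01 to 1.56) with a log2 fold change of 0.33 (SE 0.14, limma adjusted p = 0.197, exact permutation p = 0.114).

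Smad2 (ENSMUSG00000024563, chromosome 18, 76241580 to 76310963, plus strand), a SMAD activated by the receptor, had 79.7, 84.7 and 88.9 CPM in unlasered libraries, the narrowest spread of the members there apart from Smad7. Lasered libraries had 65.3, 80.8, 93.1 and 71.0 CPM and lay on both sides of this range. The log2 fold change was -0.13 (SE 0.15, limma adjusted p = 0.651). In CPM, Smad4 was 1.13, 1.02 and 1.26 times Smad2 in unlasered libraries and 2.04, 1.53, 1.26 and 1.52 times Smad2 in lasered libraries. These ratios did not overlap, by a margin in the third digit, and the exact permutation p of 0.057 was the smallest possible (adjusted 0.343 over the 6 ratios).

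Smad3 (ENSMUSG00000032402, chromosome 9, 63646767 to 63757994, minus strand), the other SMAD activated by the receptor and one that binds DNA itself, varied most among unlasered libraries, with 49.0, 82.5 and 162 CPM (coefficient of variation 59.5%). In lasered libraries it had 99.2, 90.7, 110 and 105 CPM, the narrowest spread of the members there (coefficient of variation 8.07%). All lasered libraries lay between unlasered 2 and unlasered 3. The log2 fold change of 0.21 (SE 0.33, limma adjusted p = 0.756) had the widest 95% interval of the members, from -0.53 to 0.95. The ratio of Smad3 to Smad2 ranged from 0.614 to 1.83 in unlasered and from 1.12 to 1.52 in lasered libraries (exact permutation p = 0.514, adjusted 0.617).

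Smad7 (ENSMUSG00000025880, chromosome 18, 75367529 to 75395935, plus strand), the inhibitory SMAD that TGF-beta itself commonly induces, had 16.0, 15.7 and 17.3 CPM in unlasered and 22.2, 15.1, 16.7 and 12.5 CPM in lasered libraries. The lasered libraries enclosed the unlasered ones, and lasered 1 was the highest. The log2 fold change was -0.01 (SE 0.20, limma adjusted p = 0.992), with a 95% interval of the fold from 0.728 to 1.36, and its sign changed with median-of-ratios scaling (0.07).

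Ski (ENSMUSG00000029050, chromosome 4, 155154075 to 155222592, minus strand) had 236, 256 and 486 CPM in unlasered and 360, 279, 274 and 364 CPM in lasered libraries. Its paralogue Skil (ENSMUSG00000027660, chromosome 3, 31095058 to 31122577, plus strand) had 128, 127 and 244 CPM in unlasered and 187, 127, 181 and 181 CPM in lasered libraries. Both corepressors were highest in unlasered 3 and had the lasered libraries in between. The log2 fold changes were 0.04 (SE 0.25, limma adjusted p = 0.951) for Ski and 0.08 (SE 0.25, limma adjusted p = 0.884) for Skil. Ski was 1.84 to 2.02 times Skil in CPM in unlasered libraries and 1.51 to 2.19 times in lasered libraries (exact permutation p = 0.914).

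**Figure D3:**
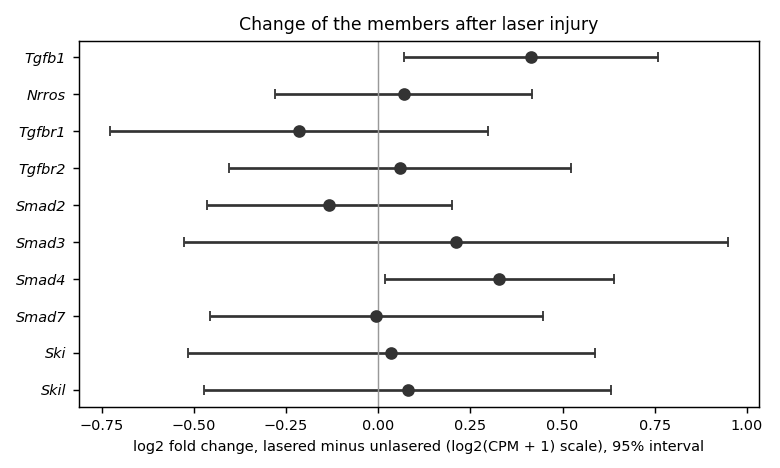
Log2 fold change (lasered minus unlasered, on the log2(CPM + 1) scale) of each member with its 95% interval from limma, for 3 unlasered and 4 lasered libraries. The intervals of Tgfb1 (0.07 to 0.76) and Smad4 (0.02 to 0.64) lie above 0 before adjustment, and those of the other 8 members span 0.

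Unlasered 3 stood apart for a part of the members, a pattern described after the values were seen. It was the highest of the 7 libraries for 5 of 10 members, Tgfbr1, Tgfbr2, Smad3, Ski and Skil, and for 18.1% of all tested genes. Relative to the mean of unlasered 1 and 2, unlasered 3 had 2.47 times the Smad3 level, 1.98 times that of Ski, 1.92 times that of Skil, 1.81 times that of Tgfbr2 and 1.70 times that of Tgfbr1. The other 5 members had ratios between 1.08 for Smad2 and 1.27 for Tgfb1. The ratio was at least 1.5 for these 5 of 10 members and for 16.6% of 17493 tested genes, and its median was 1.49 for the members and 0.952 for all tested genes. In contrast, the microglia markers of unlasered 3 summed to 27049 CPM, within the range of the other unlasered libraries.

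Without unlasered 3, 0 of 10 members were called (7.31% of 17073 tested genes were), and 6 members had an unadjusted p under 0.05, against 28.1% of tested genes. The log2 fold changes then were 0.66 for Smad3 (limma adjusted p = 0.0833), 0.53 for Tgfb1 (adjusted p = 0.0635), 0.44 for Smad4 (adjusted p = 0.0641), 0.39 for Skil (adjusted p = 0.177), 0.36 for Ski (adjusted p = 0.167) and 0.34 for Tgfbr2 (adjusted p = 0.0883). The median over the 10 members was 0.35, beside -0.0014 for all tested genes. It was -0.0708 without unlasered 1 and -0.0700 without unlasered 2. Unlasered 3 was picked out because 5 members were highest there, so a rise of the median without it follows from that choice. Without unlasered 3, Tgfbr1 changed from -0.22 to 0.04. With library totals that leave out the rod photoreceptor markers, 0 members were called, and the log2 fold changes of Tgfb1 and Smad4 were 0.40 and 0.32.

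**Figure D4:**
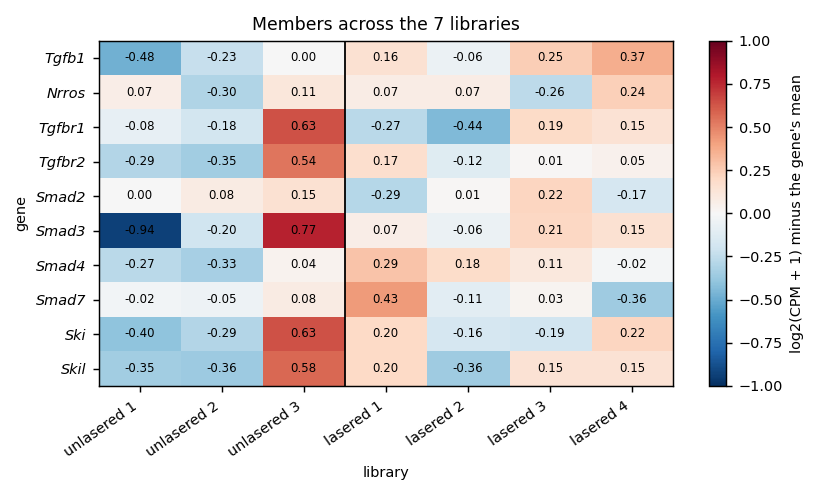
Log2(CPM + 1) of each member in each of the 7 libraries minus the mean of that gene over all libraries, coloured from -1 (blue) to 1 (red), with a line between unlasered and lasered libraries. Unlasered 3 is at 0.54 to 0.77 for Tgfbr1, Tgfbr2, Smad3, Ski and Skil, and unlasered 1 is at -0.94 for Smad3.

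For each member, the tested genes with the most similar pattern over the 7 libraries were found by the root mean square difference of centred log2(CPM + 1) values, among 10287 genes with a mean of at least 10 CPM. Tgfbr2 was closest to Fgd4 (0.0446) and Braf (0.0506), Smad4 to Gnaq (0.0304) and E2f3 (0.0433), and Nrros to 2310022A10Rik (0.0370) and Zfyve19 (0.0437). Tgfb1 was closest to Capn3 (0.0688) and Gm20695 (0.0718), Tgfbr1 to Ythdf3 (0.0653) and Zfp658 (0.0882), Ski to Smarca2 (0.0572) and Trip11 (0.0744), and Skil to Cep350 (0.0734) and Plcg1 (0.0786). For the remaining members the nearest genes were Slc30a9 and Naa15 for Smad2, Vamp7 and Zfp934 for Smad7, and Gm26778 and C1galt1 for Smad3, whose nearest gene was the least close of all (0.104). Among the members themselves, Tgfbr2 and Skil were the closest pair (0.114), followed by Ski and Tgfbr2 (0.118).

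The other genes of the TGF-beta pathway were taken from 8 lists with 148 genes, of which 117 were tested. Of these, 6 were called, 2 higher and 4 lower after laser, or 5.13% against 6.93% of all tested genes, and the median log2 fold change was 0.02. Of the 4 lower genes, Tgfb2 passed the filter only through the unlasered libraries, where it was higher. With median-of-ratios scaling, 6 were called as well, but 4 higher and 2 lower, since Klf10 and Pmepa1 were no longer called and Cdkn1a and Id2 were. Over all 17496 tested genes this scaling called 1439, 935 higher and 504 lower. Without unlasered 3, 9 of 113 tested were called, 8 higher (Mmp14, Fn1, Tgfbi, Itgav, Itgb3, Usp15, Runx1 and Tab2) and 1 lower (Bmp2). In that setting 7.31% of all 17073 tested genes were called, 815 higher and 433 lower.

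Of the other isoforms and the genes for latency and activation, 2 of 10 tested genes were called. Mmp14 (chromosome 14, 54431612 to 54445364), a membrane-bound matrix protease that can release latent TGF-beta, had 60.7, 67.5 and 66.1 CPM in unlasered and 110, 130, 120 and 109 CPM in lasered libraries. The groups did not overlap, and Mmp14 rose 1.79-fold (95% interval 1.48 to 2.17, log2 fold change 0.84, SE 0.12, limma adjusted p = 0.0089). Tgfb2 (chromosome 1, 186622792 to 186705989), a second ligand isoform, had 2.01, 1.14 and 3.36 CPM in unlasered and 0.204, 0.245, 0.348 and 0.646 CPM in lasered libraries. It fell by 1.17 on the log2(CPM + 1) scale (SE 0.26, limma adjusted p = 0.0352), a scale that understates the change of so low a gene, and its exons overlap Gm29491 on the other strand. The log2 fold change was -2.27 with a pseudocount of 0.1, -2.56 with edgeR and -2.57 with DESeq2. Tgfb2 reached 1 CPM in the 3 unlasered libraries only, so it was tested only because of the group where it was higher. Without the filter the call was lost (limma adjusted p = 0.0762). Without lasered 1, 2 or 3 the call was also lost (limma adjusted p = 0.0921, 0.0947 and 0.0813), and without each unlasered library Tgfb2 was below the level tested. The integrin subunits with the highest levels were Itgb5 (1975 ± 299 CPM unlasered, n = 3, and 2380 ± 203 CPM lasered, n = 4), Itgb1 (590 ± 80.6 and 612 ± 91.4 CPM) and Itgav (204 ± 119 and 208 ± 21.7 CPM), which pair into receptors that can activate latent TGF-beta. None of these was called (limma adjusted p = 0.236, 0.879 and 0.787), although Itgav was called without unlasered 3 (log2 fold change 0.61 in place of 0.17, adjusted p = 0.0329).

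Pmepa1 and Klf10, genes that TGF-beta commonly induces, passed the test as lower after laser, and Fn1, which belongs to the same list, as higher. These were 3 of 16 tested genes of that list, and each call was lost in most of the 17 alternatives, in 13 for Pmepa1, 10 for Klf10 and 11 for Fn1, with no change of direction. Pmepa1 (chromosome 2, 173224458 to 173276533), whose product keeps receptor-regulated SMADs from the receptor and which was also the only called gene of 16 tested SMAD turnover genes, had 1202, 1166 and 1187 CPM in unlasered and 863, 986, 791 and 905 CPM in lasered libraries. All lasered libraries were lower, by 0.42 on the log2 scale (fold 0.746, 95% interval 0.630 to 0.883, limma adjusted p = 0.0496), and the call was lost without any single library, with adjusted p-values of 0.0595 to 0.142. Klf10 (chromosome 15, 38291463 to 38300706), a transcription factor also known as TIEG1, had 250, 223 and 256 CPM in unlasered and 145, 114, 151 and 184 CPM in lasered libraries, again without overlap. It fell by 0.72 on the log2 scale (SE 0.16, fold 0.605, limma adjusted p = 0.0348). Without lasered 4 the call held (adjusted p = 0.0271), and without any other single library the adjusted p was 0.0595 to 0.0894.

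Fn1 (chromosome 1, 71585520 to 71653200), which encodes the matrix protein fibronectin, had 41.1, 65.6 and 288 CPM in unlasered and 776, 525, 593 and 248 CPM in lasered libraries. Unlasered 3 was above lasered 4, so the groups overlapped. Fn1 rose by 2.41 on the log2 scale (SE 0.61, limma adjusted p = 0.0485), but this call was lost in 11 of 17 alternatives. Without unlasered 1, unlasered 2, lasered 1, lasered 2 or lasered 3 the adjusted p was 0.115 to 0.133, with edgeR 0.109 and with DESeq2 0.0650, while without unlasered 3 the log2 fold change was 3.23 (adjusted p = 0.0122). Its exons overlap Apol7d on the other strand. Tgfbi, the gene of this list with the highest level, had 754 ± 136 CPM in unlasered (n = 3) and 917 ± 32.6 CPM in lasered rMG (n = 4, limma adjusted p = 0.216), and it was called without unlasered 3 (log2 fold change 0.44, adjusted p = 0.0343).

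Bmp2 (chromosome 2, 133552159 to 133562885), a ligand of the related BMP branch, was the 1 called gene of 18 tested in that branch. It had 91.8, 68.9 and 93.9 CPM in unlasered and 32.9, 35.4, 34.3 and 28.8 CPM in lasered libraries. The lasered libraries were close together and all below the unlasered ones, and Bmp2 fell by 1.33 on the log2 scale (SE 0.16, fold 0.397, 95% interval 0.311 to 0.506, limma adjusted p = 0.0056). Id2, a target of BMP signalling, had 103 ± 23.9 CPM in unlasered (n = 3) and 167 ± 34.9 CPM in lasered rMG (n = 4), a log2 fold change of 0.69 that did not pass (limma adjusted p = 0.0817). Smad1, a SMAD of this branch, had 117 ± 7.03 and 99.2 ± 10.4 CPM without overlap between groups (limma adjusted p = 0.304), and the receptor Bmpr2 had 54.4 ± 22.1 and 73.2 ± 14.7 CPM (limma adjusted p = 0.322).

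**Figure D5:**
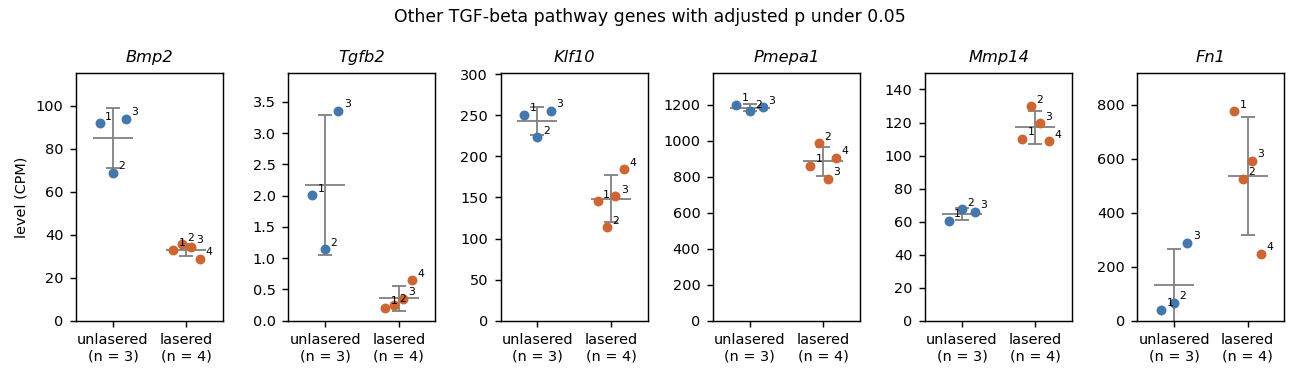
CPM in each library (numbered points) of the 6 other pathway genes with a limma adjusted p under 0.05, with the mean and SD of 3 unlasered and 4 lasered libraries. Bmp2, Tgfb2, Klf10 and Pmepa1 are lower and Mmp14 is higher in all lasered libraries, whereas the groups overlap for Fn1.

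Limma called no gene among 9 tested receptor modulators, 14 SMAD partners, 15 genes of the non-SMAD branch and 21 genes of the microglia signature that depends on TGF-beta. At an unadjusted p under 0.05 were 1, 1, 2 and 5 of these, against 22.7% of all tested genes. EdgeR called no gene of these lists either, whereas DESeq2 called Runx3 (adjusted p = 0.0235), Traf6 (adjusted p = 0.0498), P2ry12 (adjusted p = 0.0312) and Slc2a5 (adjusted p = 0.0413). With a library left out, limma called Tgfbr3 without unlasered 2, Runx1 and Tab2 without unlasered 3, and P2ry12 and Slc2a5 without lasered 4. The receptor adaptor Dab2 had 1218 ± 284 CPM in unlasered (n = 3) and 971 ± 100.3 CPM in lasered rMG (n = 4, limma adjusted p = 0.305), Fkbp1a had 175 ± 41.7 and 161 ± 5.08 CPM, and Strap had 90.5 ± 2.36 and 83.1 ± 11.7 CPM. Among the SMAD turnover genes, the deubiquitinase gene Usp4 had 123 ± 31.5 and 132 ± 3.74 CPM and the ubiquitin ligase gene Wwp2 had 107 ± 14.8 and 125 ± 12.7 CPM. Mef2c (824 ± 179 and 673 ± 56.2 CPM), Zeb2 (230 ± 88.8 and 312 ± 68.4 CPM) and Mef2a (298 ± 117 and 261 ± 19.6 CPM), transcription factors that can act with SMADs, had log2 fold changes of -0.27, 0.48 and -0.13 and limma adjusted p-values of 0.332, 0.303 and 0.774. The kinase and GTPase genes Rhoa, Mapk14 and Rock2 had log2 fold changes of 0.15, 0.03 and -0.14. In the microglia signature, the median log2 fold change was -0.08, and the 5 of 21 genes with an unadjusted p under 0.05, against 22.7% of tested genes, all had lower means after laser. The split by direction of all tested genes at that threshold was not counted, so no fall of the signature is drawn from this. P2ry12, the purinergic receptor of homeostatic microglia, had 569, 412 and 498 CPM in unlasered and 257, 244, 332 and 404 CPM in lasered libraries. Its groups did not overlap, narrowly between unlasered 2 and lasered 4, and the log2 fold change was -0.69 (SE 0.19, limma adjusted p = 0.0693). The exons of P2ry12 overlap Med12l, and those of Itgav overlap Gm13684, on the other strand. The log2 fold changes of the other 4 were -0.96 for the sugar transporter gene Slc2a5 (limma adjusted p = 0.0862), -0.63 for P2ry13 (adjusted p = 0.129), -0.46 for Gpr34 (adjusted p = 0.195) and -0.39 for Siglech (adjusted p = 0.219), and the groups overlapped for each of these. Among its most abundant genes were the growth factor receptor gene Csf1r (8301 ± 1854 and 8737 ± 1193 CPM) and the Fc receptor-like gene Fcrls (4038 ± 413 and 3914 ± 593 CPM), with limma adjusted p-values of 0.801 and 0.861.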

How the data were processed

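RNA was sequenced from 3 unlasered and 4 lasered libraries of sorted rMG, made with a SMARTer and Nextera XT kit that does not mark strand. The authors trimmed reads with cutadapt, removed duplicates with FastUniq, mapped with bowtie2 and used HTSeq for gene counts (Ensembl annotation, version 90). The submitters' processing notes name the genome build GRCm38. The deposited columns are headed TPM, but each library's values are integer multiples of 1 step that does not depend on gene length, so the deposited values are CPM. Whole reads were recovered for 100% of the values, to within 0.05 of a read, and total reads per library gave the depth. Reads on overlapping genes were listed jointly for 4492 of 40743 genes, and 0 members had such reads. No member had an exon that overlaps another gene.

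Groups were taken from the sample labels. Log2(CPM + 1) was fitted with limma 3.58.1 (mean-variance trend, robust) in R 4.3.3, for the 17496 genes that reached 1 CPM in 3 or more libraries, and p-values were two-sided and adjusted by the Benjamini-Hochberg method. Fold changes and their intervals are on the log2(CPM + 1) scale. Single levels and ratios were compared with exact permutation tests over libraries. Libraries were separate pools of 3 to 4 mice, and p-values measure the spread between these pools. Exonic lengths and coordinates came from GENCODE M21 (GRCm38), and promoters from RefSeq (GRCm38.p6). Script steps were tested on simulated data with 200 genes changed, picked among genes with a mean of at least 10 CPM. Simulated reads were independent between genes, with no pattern shared by the genes of a library. The rates therefore do not cover lower genes such as Tgfb2 or a library that stands apart. Limma called 46% of the genes changed 2-fold and 97% of those changed 4-fold. Of its calls, 11.5% at 2-fold and 4.90% at 4-fold were unchanged genes. The pathway genes named were, for each list, all called genes (at most 6) and the 3 with the highest mean CPM. One gene that this rule names is not reported here. Sall1, Cspg4, Col1a1, Col1a2, Dcn, Apoe, P2ry12, other genes given only as called in an alternative or at an unadjusted p under 0.05, and the ratios of members were named after their values were seen. The members and lists were chosen with earlier results of these data known. Alternatives were a pseudocount of 0.1, no filter or at least 10 CPM, median-of-ratios scaling, edgeR 4.0.16 and DESeq2 1.42.0 on recovered reads, limma without trend and robust options, the omission of each library, the replicate number as a block and, for the order of levels, the median and CPM without division by length. Totals without rod markers and the omission of genes with joint reads were added after seeing the data. Reads listed for a gene alone could not be separated, since the deposited entries are already merged.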

Additional observations from a re-analysis of the deposited data

Results flagged for a closer look

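In groups of 4 libraries, single libraries far from the other 3 were sought among 37 levels of members and named pathway genes, and 3 were found, where chance gives about 1 in 20. Skil, the SMAD corepressor, had 127 CPM in lasered 2, while the other lasered libraries had 181 to 187 CPM. Without lasered 2, its log2 fold change was 0.21, and it stayed uncalled. Wwp2, a ubiquitin ligase gene, had 106 CPM in lasered 3, below 130 to 132 CPM in the other lasered libraries. Tgfbi, a matrix gene that TGF-beta induces, had 868 CPM in lasered 4, below 932 to 934 CPM in the others.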

How the results depend on the processing

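The number of called members was 0 under all 17 alternatives, with a lowest adjusted p of 0.0635 (Tgfb1 without unlasered 3), and this count says nothing of changes smaller than the intervals given. Of 170 member values, 21 changed sign. Tgfb1, Smad2 and Smad4 kept their direction throughout. Smad7 turned to 0.0723 with median-of-ratios scaling, 0.0266 with edgeR, 0.0267 with DESeq2 and 0.11 with the replicate block, and Ski turned to -0.0131 with edgeR, -0.0157 with DESeq2 and -0.0315 with the replicate block. With each library left out in turn, log2 fold changes ranged from -0.0603 to 0.17 for Nrros, -0.37 to 0.0394 for Tgfbr1, -0.10 to 0.34 for Tgfbr2, -0.20 to 0.66 for Smad3, -0.15 to 0.11 for Smad7, -0.16 to 0.36 for Ski and -0.0798 to 0.39 for Skil. The called pathway genes numbered 6, and 2 without the filter, 3 with at least 10 CPM, 3 without the trend and robust options, 13 with DESeq2, 0 with the replicate block, and 2 to 9 with a library left out (2 without unlasered 1, lasered 1, lasered 2 or lasered 3). Of these 6, Mmp14 and Bmp2 lost the call only with the replicate block, while Pmepa1 lost it in 13, Fn1 in 11 and Klf10 in 10 of 17 alternatives and Tgfb2 in 5 of 13. The count over all genes was 1213, and 385 without the filter, 652 with at least 10 CPM, 2318 with DESeq2, 3 with the replicate block, and 264 to 1248 with a library left out (774 without unlasered 1, 663 without unlasered 2, 417, 264, 436 and 797 without lasered 1 to 4). The cause of these shifts was not tested. The replicate numbers are not stated to mark shared mice, and same-numbered libraries did not deviate together (correlations of -0.183, -0.126 and -0.0234), so the block is given only here.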
